A study of Mus musculus with 20 samples.

Results

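The genes described are 9 regulators and effectors of the fasting response that are tied to the peroxisome proliferator-activated receptors (PPARs) and their PGC-1 coactivators: Ppara, Ppard, Ppargc1a, Ppargc1b, Pdk2, Pdk4, Ucp2, Ucp3 and Angptl4. Their probes were found by gene symbol, with no threshold on a measured value. Of the 16593 genes named on the arrays, 8 are in the set, by 9 of the 25697 probes. Ucp3 has 2 probes and the other 7 genes have 1 each, while no probe is named for Ucp2, which was not analysed here.

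RNA levels were measured in muscle and in brain, with Illumina bead arrays for the mouse. The mutant mice carry a transgene for human mutant TDP-43, an RNA-binding protein that forms aggregates in amyotrophic lateral sclerosis and frontotemporal dementia. There were 4 mutant muscles and 4 wild-type muscles, and 6 mutant brains and 6 wild-type brains, each from a mouse with its own number, so that muscle and brain came from different animals. The title of the study concerns body weight and circulating non-esterified fatty acids, which bears on genes that switch fuel use. All mice were 17 weeks old on a C57BL/6J background. The mutants are labelled heterozygote transgenic human mutant TDP-43 and the controls heterozygote wt, called wild type here after the design text. The promoter of the transgene, the muscle sampled, the feeding state and the hour of sampling are not given in the sources used here.

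PPARs are nuclear receptors that bind fatty acids and their derivatives, pair with retinoid X receptors and switch on genes for lipid uptake and oxidation. PGC-1 proteins bind such receptors, and other factors, and raise the transcription of mitochondrial genes. In fasted muscle the kinase PDK4 shuts the pyruvate dehydrogenase complex, so that fatty acids in place of glucose feed the mitochondria, and ANGPTL4 blocks lipoprotein lipase and so alters how fat is shared between tissues.

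Muscle arrays had 11469 to 12446 probes above background, and brain arrays had 11736 to 12966. The brightest probe of mouse Tardbp, ILMN_3093089, was at 52.1% of wild type in mutant muscle (limma adjusted p = 0.00533) and at 67.0% in mutant brain (limma adjusted p = 0.145). The other 2 Tardbp probes passed in neither tissue. For ILMN_1244811 the mutant level was 64.1% of the wild-type one in muscle and 68.3% in brain, and for ILMN_3029953 it was 97.0% in muscle and 108% in brain. Skeletal muscle markers were above background on the muscle arrays for 9 of the 9 genes with a probe. Of the 8 neuronal markers with a probe, 5 were above background on brain arrays, and Snap25, Nefl and Tubb3 were above background on 0 of 12. On the first principal component of each tissue, muscle wild type 2 and brain mutant 2, wild type 2 and wild type 4 stood apart from the other arrays. Muscle mutant 4 lay between, at a score of 14.1, against 39.4 for muscle wild type 2 and -12.3 to -3.2 for the other muscles. The design text calls the mice male, and the Y-linked gene Eif2s3y was above background on 8 of 8 muscle arrays. It was above background on only 6 of 12 brain arrays, those of mutants 2, 3 and 5 and of wild types 1, 2 and 4, at log2 levels of 6.33 to 7.39 against 4.24 to 4.31 on the others. Xist, transcribed from the inactive X chromosome, ran the other way, at log2 levels of 4.28 to 4.74 in the brains with Eif2s3y and 5.03 to 5.63 in those without. By detection the markers did not all split the brains alike. This Xist probe was above background in 4 mutant and 4 wild-type brains. Of other Y-linked genes, Uty was above background in 6 mutant and 5 wild-type brains, and Kdm5d in 2 mutant and 3 wild-type brains. In muscle, Uty was above background in 3 mutants and 3 wild types.

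The promoter sequences of Pdk4 and Ucp3 are shown because Pdk4 had the largest muscle to brain difference of the set, and because their levels were compared over the muscles, a pair picked out after its values were seen that did not pass after adjustment. Each is the 250 bases before the transcription start in RefSeq, build GRCm38.p6, read 5′ to 3′ on the gene's own strand, with each AGGTCA in capitals, the hexamer that nuclear receptors bind. Pdk4 lies on the minus strand at chr6:5496279-5496528, and Ucp3 on the plus strand at chr7:100472741-100472990.
Pdk4: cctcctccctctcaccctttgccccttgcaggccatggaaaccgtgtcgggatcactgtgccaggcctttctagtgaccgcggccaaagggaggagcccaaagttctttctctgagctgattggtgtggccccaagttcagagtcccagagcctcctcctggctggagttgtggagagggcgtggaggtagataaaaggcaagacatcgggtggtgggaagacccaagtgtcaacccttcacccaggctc
Ucp3: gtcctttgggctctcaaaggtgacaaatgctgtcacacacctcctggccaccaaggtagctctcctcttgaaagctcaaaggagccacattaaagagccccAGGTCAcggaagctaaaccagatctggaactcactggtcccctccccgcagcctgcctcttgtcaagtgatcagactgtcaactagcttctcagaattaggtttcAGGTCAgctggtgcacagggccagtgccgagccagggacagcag

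Promoter windows were found for 7 of the 9 genes, 8 windows in all because Pdk2 has 2 starts. 6 motifs were searched on both strands in every window of 250 bases: the hexamer AGGTCA, the PPAR and retinoid X receptor repeat of that hexamer with 1 base between its copies, the ERR site TCAAGGTCA, the FoxO site GTAAACA, the cyclic AMP element TGACGTCA, and the glucocorticoid element, GNACA and TGTNC with 3 bases between. The repeat holds 2 copies of the hexamer and the ERR site holds 1, so these matches overlap. Only the Ucp3 window held a match, 2 hexamers on the plus strand whose first bases lie at -149 and -44 from the start, and the other 7 windows held none of the 6 motifs in these letters. Across 32851 windows of mouse genes, 14% held the hexamer, 0.0335% the repeat, 0.387% the ERR site, 3.17% the FoxO site, 1.55% the cyclic AMP element and 0.387% the glucocorticoid element. The share of G and C was 58.8% in the Pdk4 window and 54.8% in the Ucp3 window, against a median of 52.4% over all windows.

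The receptors themselves were at the edge of measurement. A probe is called above background on an array when its detection p, the deposited chance that a negative control bead is as bright, is under 0.05. Ppard on chromosome 17, the most abundant PPAR of skeletal muscle, was above background on 0 of 20 arrays, with a lowest detection p of 0.180. Ppara on chromosome 15, the receptor that drives fatty acid oxidation in the fasted liver, was above background on 1 array, mutant muscle 1, at a detection p of 0.0439. Neither gives a measure of its gene here, and neither was tested. The deposited signals, not normalized, ran from 92.5 to 115 for Ppara and from 95.6 to 114 for Ppard over the 20 arrays.

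The coactivators Ppargc1a and Ppargc1b, the kinases Pdk2 and Pdk4 and the secreted Angptl4 were above background on 20 of 20 arrays. Both probes of Ucp3, a mitochondrial carrier of muscle that is raised by fatty acids, were above background on 8 of 8 muscle arrays and on 0 of 12 brain arrays. Levels are given as log2 of the background-corrected, quantile-normalized signal with 16 added, so differences of dim probes are understated. Levels of different probes are not comparable.

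**Figure D1:**
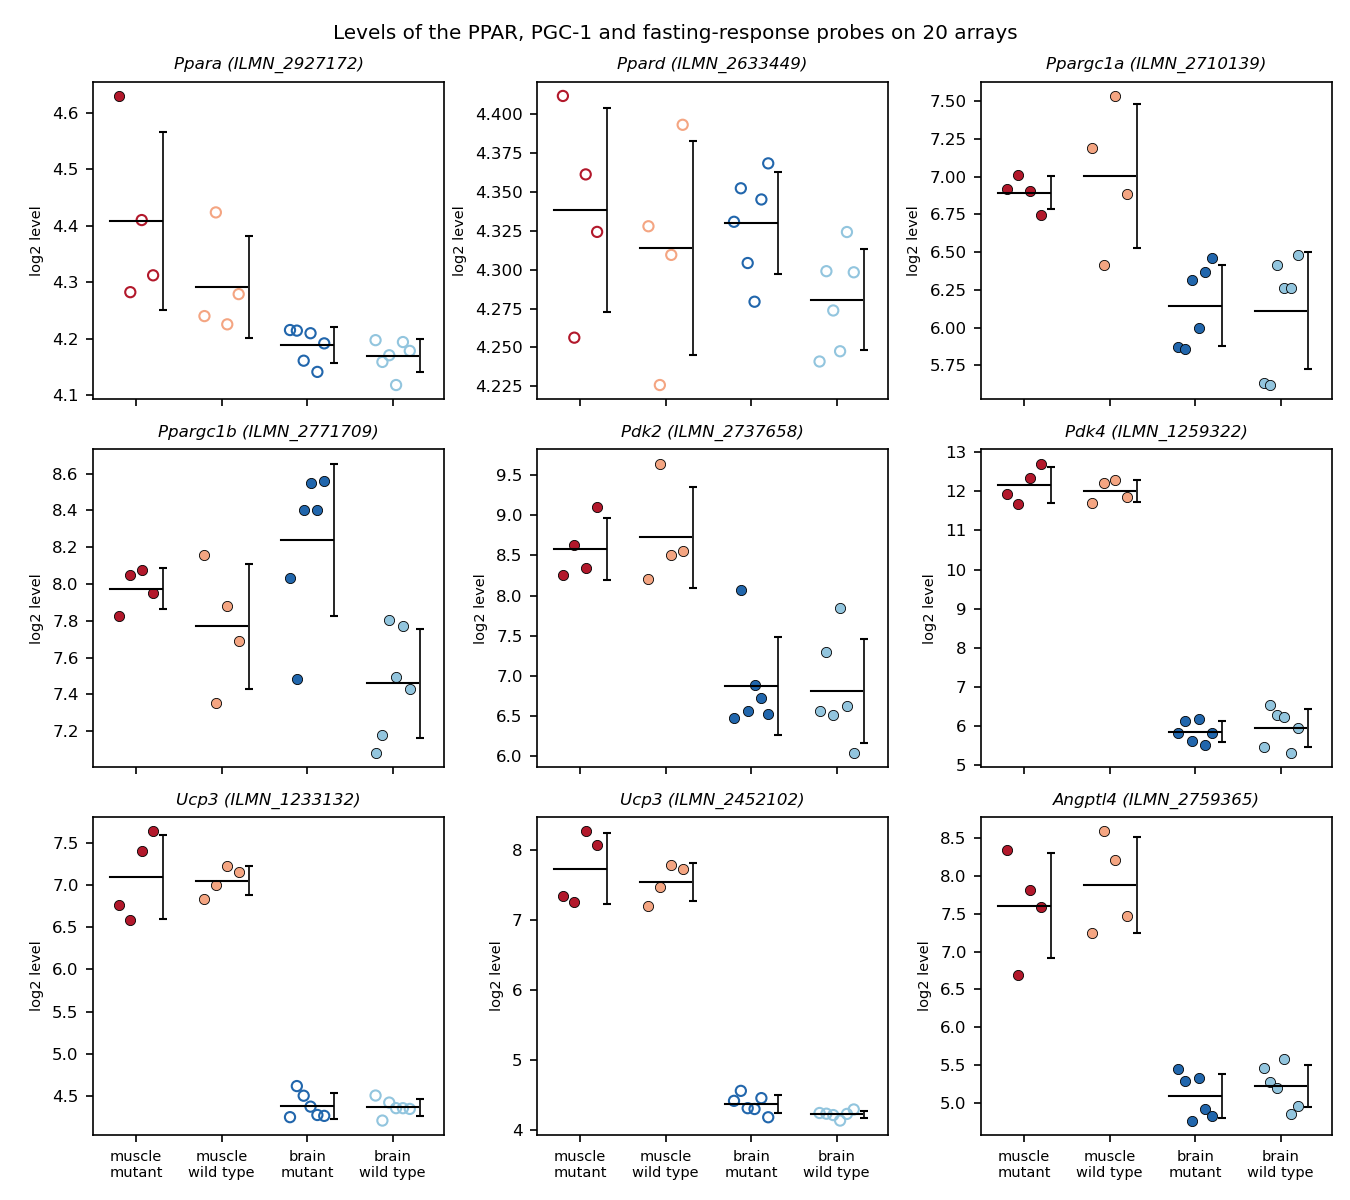
Log2 levels of the 9 probes on the 20 arrays, all normalized together, in mutant and wild-type muscle and mutant and wild-type brain (filled points, above background; open points, not above background; bars, mean and SD). Pdk4, Ucp3, Angptl4 and Pdk2 lie higher in muscle, the Ppargc1b points of brain mutants lie mostly above those of brain wild types, and Ppara and Ppard stay between 4.1 and 4.7.

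Muscle and brain differed in most of these genes, in mutant and in wild-type mice alike. With all 20 arrays normalized together, 6 of the 7 probes tested were higher in muscle in mutant mice, where 76.3% of all 14022 probes tested passed the limma threshold of 0.05 after Benjamini-Hochberg adjustment, 5750 of them higher in muscle and 4954 lower. In wild-type mice the same count was 6 of 7, where 75.9% of all probes passed, 5705 of them higher in muscle and 4933 lower. Each count holds both Ucp3 probes, which met the detection filter in muscle only, so their calls set muscle against background. A share near the background is not a result about the set, and what follows is the size of each difference. Tissue goes with different mice here, and with Eif2s3y on all muscle arrays and on only 6 brain arrays, so tissue and mouse cannot be told apart. In bulk tissue, fewer cells of a type and less RNA per cell cannot be told apart either.

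Pdk4, on chromosome 6, had the largest muscle to brain difference of the set. Its log2 levels averaged 12.16 ± 0.46 in mutant muscle against 5.85 ± 0.27 in mutant brain (SD, n = 4 and 6), and 12.02 ± 0.28 in wild-type muscle against 5.97 ± 0.48 in wild-type brain. No muscle came near any brain. The log2 difference, muscle minus brain, was 6.30 in mutants (SE 0.23, 78.9-fold, limma adjusted p = 1.87e-16) and 6.05 in wild types (66.2-fold, limma adjusted p = 3.98e-16). The deposited signals behind these levels ran from 4382 to 9725 in mutant muscle and from 127 to 177 in mutant brain, and from 4029 to 10007 in wild-type muscle and from 128 to 252 in wild-type brain.

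Pdk2 on chromosome 11, the more evenly expressed pyruvate dehydrogenase kinase, differed less. Its log2 level averaged 8.58 ± 0.38 in mutant muscle against 6.88 ± 0.61 in mutant brain, and 8.73 ± 0.63 in wild-type muscle against 6.81 ± 0.64 in wild-type brain (SD, n = 4 and 6). The muscles lay above all brains of their genotype, by 1.71 in mutants (SE 0.34, 3.26-fold, limma adjusted p = 0.000118) and 1.91 in wild types (3.77-fold, limma adjusted p = 3.24e-05).

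Ucp3, on chromosome 7, can be given only a lower bound, since no brain was above background. The bound sets the mean of the muscles against, on each brain array, the higher of the probe's own level and the lowest level among probes above background. It makes no allowance for the spread between mice. By ILMN_2452102, mutant muscle was at least 8.83-fold higher than mutant brain, and wild-type muscle at least 7.93-fold higher than wild-type brain. By ILMN_1233132 the bounds were at least 5.66-fold in mutants and at least 5.61-fold in wild types. Measured means of ILMN_2452102 were 7.74 against 4.37 in mutants and 7.55 against 4.23 in wild types. Both probes entered the tissue test through detection in muscle alone, so their p-values set muscle against background and are not given.

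Angptl4, on chromosome 17, averaged a log2 level of 7.61 ± 0.69 in mutant muscle against 5.09 ± 0.29 in mutant brain, and of 7.88 ± 0.63 in wild-type muscle against 5.22 ± 0.28 in wild-type brain (SD, n = 4 and 6). All muscles lay above all brains of their genotype, by 2.51 in mutants (SE 0.27, 5.71-fold, limma adjusted p = 2.75e-08) and 2.66 in wild types (6.32-fold, limma adjusted p = 1.16e-08). Of the adipocyte markers tested, 6 of 6 were also higher in muscle in both genotypes, with median log2 differences of 1.73 in mutants and 1.56 in wild types. Of these, Adipoq, Cidec and Lipe were above background in no brain and met the detection filter through muscle alone. Their calls, and their part of the medians, therefore set muscle against background. The part of the adipocyte markers in the Angptl4 difference was not tested.

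The coactivators were the members closest in level between the tissues. Ppargc1a on chromosome 5, the coactivator induced by fasting and exercise, averaged a log2 level of 6.90 ± 0.11 in mutant muscle against 6.15 ± 0.27 in mutant brain, and 7.01 ± 0.48 in wild-type muscle against 6.11 ± 0.39 in wild-type brain. The difference was 0.75 in mutants (SE 0.20, 1.68-fold, limma adjusted p = 0.00214) and 0.89 in wild types (1.86-fold, limma adjusted p = 0.000443). All 4 mutant muscles lay above all mutant brains, while 3 of 4 wild-type muscles lay above all wild-type brains.

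Ppargc1b on chromosome 18, the relative of Ppargc1a that is linked more to basal mitochondrial content, passed in neither genotype. Its log2 level averaged 7.97 ± 0.11 in mutant muscle against 8.24 ± 0.42 in mutant brain, a difference of -0.26 (95% interval -0.67 to 0.14, limma adjusted p = 0.222). It averaged 7.77 ± 0.34 in wild-type muscle against 7.46 ± 0.30 in wild-type brain, a difference of 0.31 (95% interval -0.10 to 0.71, limma adjusted p = 0.154). The sign of the tissue difference was therefore negative in mutants and positive in wild types, and the test of that contrast is the interaction of genotype and tissue given with the genotype comparisons. Of 28 alternatives in each genotype, 2 passed. Without brain mutant 2 the mutant value was -0.42 (limma adjusted p = 0.0288), and with array weights it was -0.36 (limma adjusted p = 0.0393). With median scaling it was 0.029, where the median of all probes was 0.12, or -0.094 relative to that median. With a replicate block the wild-type value was 0.41 (limma adjusted p = 0.0433), and with only the brains that had Eif2s3y it was 0.53 (limma adjusted p = 0.0495).

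**Figure D2:**
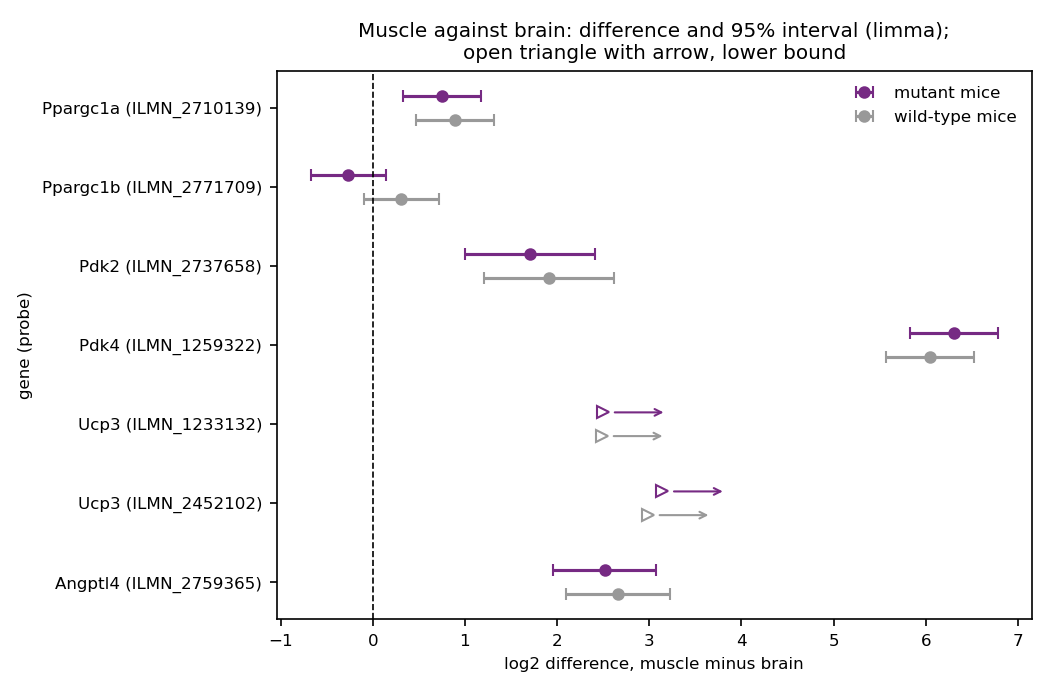
Log2 difference between muscle and brain, muscle minus brain, with its 95% interval from limma, for the 7 probes tested (upper point of each pair, mutant mice; lower point, wild-type mice). Open triangles with an arrow are lower bounds for Ucp3, which no brain measured. Pdk4 lies near 6, Angptl4 and Pdk2 lie between 1.71 and 2.66, Ppargc1a lies below 1, and both Ppargc1b intervals span 0.

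Genes around the set were followed through 8 lists of 134 genes, the members left out. In the muscle and brain comparison 94 were tested. In mutant mice 63 were higher in muscle and 13 lower, 80.9% passing, and in wild-type mice 60 were higher and 13 lower, 77.7% passing, beside 76.3% of all probes in mutants and 75.9% in wild types. The median log2 difference was 1.01 over the lists in mutants, against 0.08 over all probes, and 1.11 in wild types, against 0.08. Only 75 of the 94 genes had a probe that met the detection filter in both tissues. Calls of the rest set 1 tissue against levels at or near background, and the counts and medians include them. The list shares are over genes, each by its brightest tested probe, while the shares beside them are over all probes.

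Among 21 PPAR target genes tested, 16 were higher in muscle and 1 lower in either genotype. Cpt1b, which passes long-chain fatty acids into mitochondria, differed by 6.30 on the log2 scale in mutants (78.9-fold) and 6.06 in wild types (66.6-fold), with 5 of 6 brains above background in each genotype. The lipid droplet coat gene Plin4 differed by 5.39 in mutants and 5.47 in wild types, and Txnip, an inhibitor of glucose uptake, by 5.04 in mutants and 5.13 in wild types. The acyl-CoA thioesterase Acot1 was the one lower in muscle, by -1.92 in mutants and -2.30 in wild types. Of 21 partners and regulators of PGC-1, 12 were higher and 4 lower in mutant muscle and 14 higher and 4 lower in wild-type muscle. Perm1, a muscle gene induced by PGC-1, differed by 6.63 in mutants (98.9-fold) and 6.70 in wild types (104-fold), with 4 of 6 mutant and 3 of 6 wild-type brains above background. Lpin1, a phosphatase that also coactivates PPARs, differed by 3.68 in mutants and 4.09 in wild types, and Prkaa2, a catalytic subunit of the energy sensor AMPK, by 2.66 in mutants and 3.06 in wild types. The CREB coactivator Crtc1 (-2.05 in mutants, -2.33 in wild types), Creb1 (-1.38 in mutants, -1.26 in wild types) and Nrf1 (-1.04 in mutants, -0.90 in wild types) were lower in muscle. Creb1 was above background in 2 of 4 mutant and 3 of 4 wild-type muscles.

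Of the 8 pyruvate dehydrogenase genes tested, 6 were higher and 2 lower in mutant muscle, and 5 higher and 1 lower in wild-type muscle. The subunits Dld, Pdhb and Pdha1 differed by 2.28, 2.09 and 1.63 in mutants and by 2.01, 1.70 and 1.47 in wild types. Pdk3, a further kinase of the complex, was at least 2.60-fold lower in mutant muscle than in mutant brain. In wild types its difference was -1.66, with only 1 of 4 muscles above background, the direction opposite to that of Pdk4 and Pdk2. In the lipoprotein lipase system, on which Angptl4 acts, 8 of 9 genes were higher in mutant muscle and 7 of 9 in wild-type muscle. Lpl itself differed by 4.44 in mutants and 4.48 in wild types. Pnpla2, the main triglyceride lipase inside cells, differed by 3.55 in mutants and 3.53 in wild types. Gpihbp1, which holds the lipase on capillaries, was higher by at least 8.70-fold in mutant muscle and by at least 8.73-fold in wild-type muscle.

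Fasting, FoxO and glucocorticoid genes were higher in muscle for 12 of 19 in mutants, with 2 lower, and for 10 of 19 in wild types, with 3 lower. The muscle ubiquitin ligases stood at the top, Fbxo32 with 5.30 in mutants and 5.66 in wild types, and Trim63 with at least 23.1-fold in mutants and at least 28.0-fold in wild types. Eif4ebp1, a repressor of translation, differed by 4.40 in mutants and 4.41 in wild types. Mt1, a metallothionein, was lower in muscle, by -3.30 in mutants and -3.19 in wild types, and so was Ddit4, an inhibitor of mTOR signalling, by -0.94 in mutants and -1.27 in wild types. Of the 5 mitochondrial carriers tested beside Ucp3, the brain carriers Slc25a14 (-2.14 in mutants, -2.37 in wild types) and Slc25a27 (-1.83 in mutants, -1.81 in wild types) were lower in muscle, Slc25a27 being above background in 1 of 4 mutant and 2 of 4 wild-type muscles. The nucleotide carrier Slc25a5 was also lower (-2.06 in mutants, -2.24 in wild types), and Slc25a30 was higher (0.82 in mutants, 1.38 in wild types), with 3 of 6 mutant and 2 of 6 wild-type brains above background. Ucp1, the uncoupling protein of brown fat, was at least 2.68-fold higher in mutant muscle than in mutant brain and did not pass in wild types. Among 9 receptor partners, Rxrg (2.70 in mutants, 2.70 in wild types) and Pparg (1.68 in mutants, 1.32 in wild types) were higher in muscle. Rxra was at least 4.21-fold higher in mutant muscle than in mutant brain and differed by 1.96 in wild types, where only 1 of 6 brains was above background. The coactivator Ncoa1 was lower in muscle (-1.94 in mutants, -1.75 in wild types). Angptl7 was at least 15.6-fold higher in mutant muscle than in mutant brain and differed by 3.84 in wild types, where 1 of 6 brains was above background. Angptl1 differed by 2.41 in mutants, with 1 of 6 brains above background, and by 2.72 in wild types, with 2 of 6.

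Mutant and wild-type brains were compared with the 12 brain arrays normalized apart from muscle. None of the 5 probes tested passed, where 1 of 12423 probes did, 0.00805% of them, and 870 had an unadjusted p under 0.05 against 621 by chance. Ppargc1b nevertheless had the largest genotype difference of the set. Its log2 level had a lowest value of 7.48, a median of 8.36 and a highest of 8.51 in mutant brains, against 7.11, 7.46 and 7.78 in wild-type brains. 5 of the 6 mutants lay above all 6 wild types, and mutant 2 was the exception. The log2 difference was 0.74 (SE 0.18, 95% interval 0.36 to 1.13), a 1.68-fold level in mutants, with an unadjusted p of 0.00101, rank 27 of 12423, and a limma adjusted p of 0.421. It thus did not pass the threshold.

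The difference was 0.81 among the 6 brains with Eif2s3y and 0.68 among the 6 without, and 0.74 with Eif2s3y as a covariate (limma adjusted p = 0.778, 0.530 and 0.288). Without the 3 arrays that stood apart it was 0.82 (limma adjusted p = 0.174), and without mutant 2 alone 0.89 (limma adjusted p = 0.0938). Over all 24 alternatives it ran from 0.47 to 0.89, with limma adjusted p from 0.0938 to 0.789. The low end came from median scaling, which moved the median of all probes to -0.20, so that the value relative to that median was 0.67.

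Mean levels of marker genes of cell types and brain regions were set beside Ppargc1b. Markers of hypothalamus and pituitary, whose share depends on how a brain is cut, averaged log2 levels of 5.69 to 7.34 in mutant brains and 4.39 to 7.16 in wild-type brains. All 8 had a probe above background in some brain, 6 were tested, and these 6 had differences above 0 with a median of 0.50, none passing. The lowest of that list were wild type 1 (4.39) and, among mutants, mutant 2 (5.69), which also had the lowest Ppargc1b level of their groups. Cerebellum markers, the other list of a brain region, averaged 8.10 to 8.74 in mutants and 6.19 to 8.93 in wild types. Neuronal markers averaged 10.53 to 10.77 in mutants and 10.58 to 10.89 in wild types, and astrocyte markers 8.87 to 9.22 in mutants and 8.64 to 9.09 in wild types. Their part in the Ppargc1b difference was not tested.

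**Figure D3:**
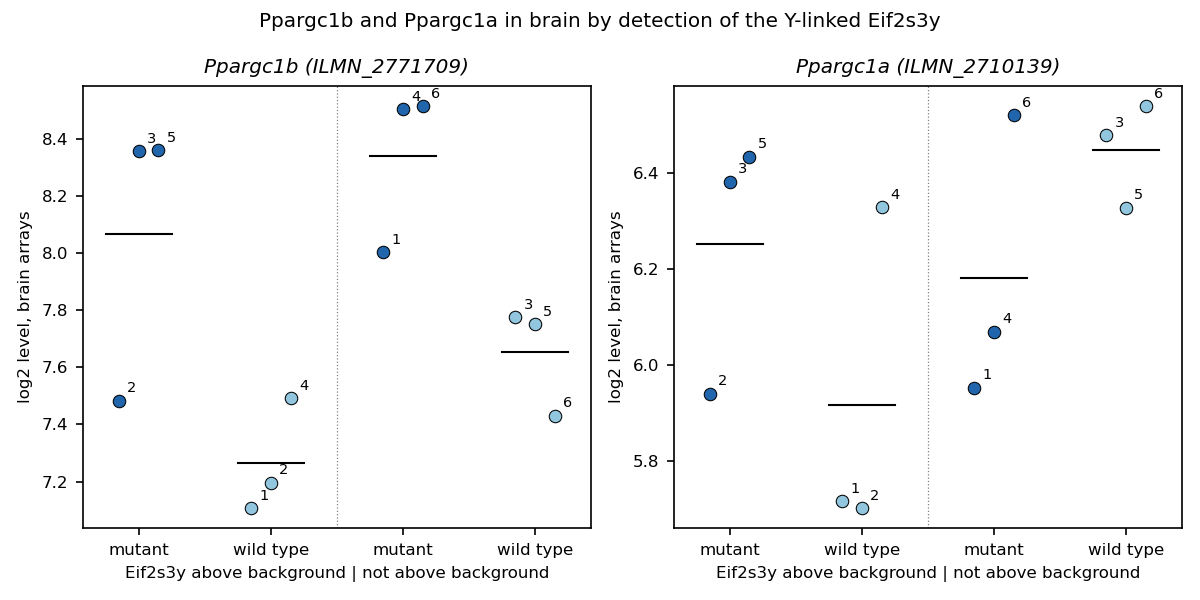
Log2 levels of Ppargc1b and Ppargc1a on the 12 brain arrays (numbers, mouse within its group; lines, mean), mutant left of wild type, with the brains that had Eif2s3y above background at left in each panel. For Ppargc1b the mutant mean is the higher of the pair on both sides, with mutant 2 at 7.48, while for Ppargc1a the mutant mean is higher at left and lower at right.

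Ppargc1a, the relative of Ppargc1b, had a genotype difference near 0 in brain. Its lowest, median and highest log2 levels were 5.94, 6.23 and 6.52 in mutant brains, against 5.70, 6.33 and 6.54 in wild-type brains, ranges that overlap almost fully. The difference was 0.03 (SE 0.17, 95% interval -0.33 to 0.40, limma adjusted p = 0.977). Its sign was negative with array weights (-0.039) and in the brains without Eif2s3y (-0.25). With median scaling it was -0.17, or 0.032 relative to the median of all probes. Over the 12 brains, r between Ppargc1a and Ppargc1b was 0.50 (permutation adjusted p = 0.290), and 0.07 without wild types 1 and 2.

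Pdk2 in brain had log2 levels from 6.54 through a median of 6.70 to 8.04 in mutants, against 6.12, 6.65 and 7.81 in wild types. The highest 3 values were those of the 3 arrays that stood apart, 7.30 to 8.04, while the other 9 brains lay between 6.12 and 6.93. The difference was 0.06 (SE 0.29, 95% interval -0.57 to 0.70, limma adjusted p = 0.975), and with median scaling it was -0.22, or -0.010 relative to the median of all probes. Pdk4, at levels far below those of muscle, had 5.60, 5.91 and 6.26 in mutant brains against 5.41, 6.16 and 6.60 in wild-type brains, a difference of -0.11 (95% interval -0.53 to 0.32, limma adjusted p = 0.933). Angptl4 had 4.82, 5.18 and 5.53 in mutants against 4.93, 5.31 and 5.67 in wild types, a difference of -0.13 (95% interval -0.47 to 0.21, limma adjusted p = 0.893). Mutants and wild types overlapped for all 3 genes.

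In muscle, none of the 7 probes tested passed between genotypes, where 21 of 11706 probes did, 0.179% of them, and 364 had an unadjusted p under 0.05 against 585 by chance. Every one of the 7 limma adjusted p was 0.999. Of the 9 pancreatic acinar markers tested, 6 were called lower in mutants, with mean log2 levels of 4.91 to 5.04 in mutant muscles and 5.99 to 6.72 in wild-type muscles. Of the 9, Prss2 and Cel were above background in 0 mutant and 4 wild-type muscles, and Cpa1, Cpb1 and Ctrb1 in 1 mutant and 4 wild-type muscles. These met the detection filter wholly or mostly through wild types, so their tests set wild type against levels at or near background. The part of the acinar markers in the values of the set was not tested. Ppargc1a had log2 levels of 6.86, 6.97, 6.84 and 6.67 in mutants 1 to 4, against 7.16, 6.31, 7.55 and 6.83 in wild types 1 to 4. The mutants lay inside the range of the wild types, whose SD was 0.52 against 0.12 in mutants, and the difference was -0.13 (SE 0.22, 95% interval -0.62 to 0.36). Ppargc1b had 7.87, 8.10, 8.13 and 7.99 in mutants against 8.21, 7.34, 7.92 and 7.72 in wild types. Here too wild type 2 was the lowest muscle, the SD was 0.12 in mutants and 0.36 in wild types, and the difference was 0.22 (SE 0.17, 95% interval -0.16 to 0.60).

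Pdk4 had log2 levels of 12.29, 12.01, 12.79 and 13.19 in mutant muscles against 12.05, 12.64, 12.72 and 12.22 in wild-type muscles. Mutants 3 and 4 were the highest of all and mutant 2 the lowest, so the genotypes overlapped. The difference was 0.16 (SE 0.25, 95% interval -0.39 to 0.71), which in fold terms runs from 0.763 to 1.64. Pdk2 had 8.32, 8.69, 8.40 and 9.23 in mutants against 8.26, 9.82, 8.57 and 8.62 in wild types. The highest muscle was wild type 2, the array that stood apart, and the difference was -0.16 (SE 0.32, 95% interval -0.85 to 0.54), or 0.18 without that array.

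Ucp3 had log2 levels by ILMN_2452102 of 7.33, 7.25, 8.33 and 8.13 in mutant muscles against 7.18, 7.48, 7.83 and 7.77 in wild-type muscles. Mutants 3 and 4 lay above all wild types and mutants 1 and 2 below most of them. The difference was 0.20 (SE 0.25, 95% interval -0.36 to 0.75), and by ILMN_1233132 it was 0.05 (95% interval -0.48 to 0.58), with levels of 6.69, 6.50, 7.40 and 7.66 in mutants against 6.77, 6.95, 7.20 and 7.12 in wild types. Both probes put the same mutants at the top, and they correlated with r = 0.92 over the 8 muscles.

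Angptl4 in muscle had log2 levels of 8.40, 6.60, 7.86 and 7.61 in mutants against 7.22, 8.66, 8.27 and 7.48 in wild types. The SD was 0.75 in mutants and 0.67 in wild types, the genotypes overlapped, and the difference was -0.29 (SE 0.39, 95% interval -1.15 to 0.57). Adipocyte markers, 8 of the 9 with a probe being above background on some muscle array and Fabp4 on none, averaged log2 levels of 7.27, 5.94, 6.08 and 6.34 in mutants against 6.05, 6.89, 6.43 and 6.12 in wild types. They were highest in mutant 1 and wild type 2, the muscles with the highest Angptl4 level, and lowest in mutant 2, the muscle with the lowest. Their part in the spread of Angptl4 was not tested. Skeletal muscle markers averaged 13.77 to 13.84 in mutants and 13.70 to 13.89 in wild types.

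**Figure D4:**
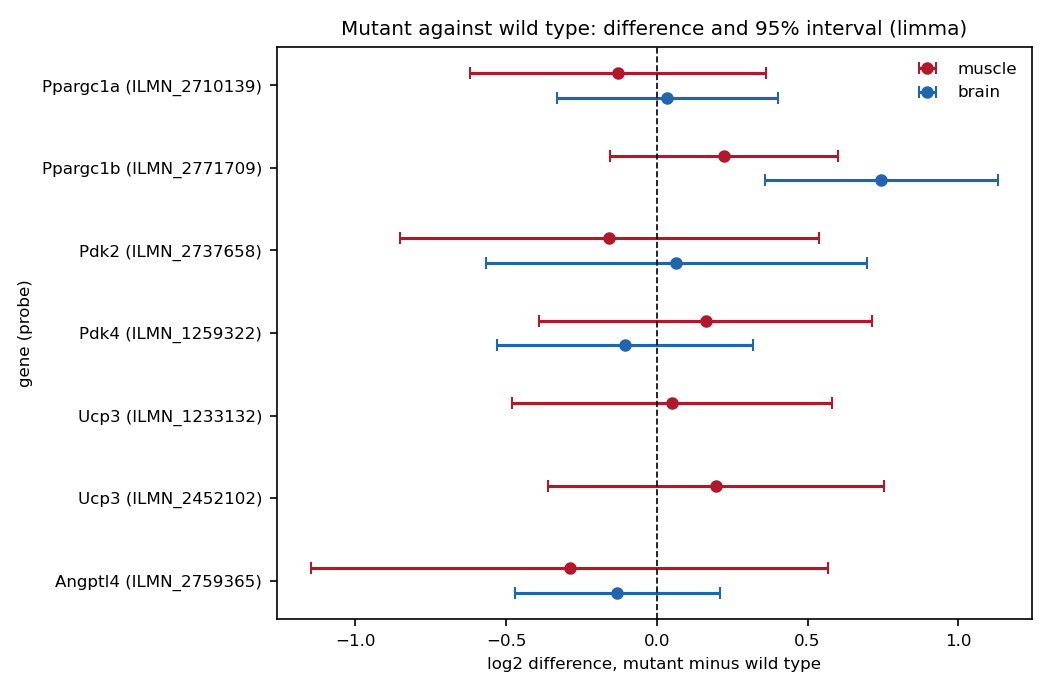
Log2 difference between mutant and wild type, mutant minus wild type, with its 95% interval from limma, for each probe tested (upper point, muscle; lower point, brain). The interval of Ppargc1b in brain, 0.36 to 1.13, is the only one that leaves out 0, and it did not pass after adjustment over all probes.

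Genes around the set did not pass between genotypes either. In muscle, 0 of 90 list genes tested passed, with 58 differences above 0 and 32 below, a median of 0.05 against 0.01 over all probes, and 3 unadjusted p under 0.05. PPAR targets had 19 of 20 differences above 0, with a median of 0.11. Acadm (0.24), Cpt1b (0.15) and Acadl (-0.36), all of fatty acid oxidation, had the lowest p of that list. The lipoprotein lipase system had 9 of 9 above 0, with a median of 0.10 and Apoc2, Abhd5 and Sel1l at 0.10 each. Differences of this size in many genes share the same 8 mice, and these counts carry no test.

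Fasting, FoxO and glucocorticoid genes leaned the other way in muscle, with 6 of 19 above 0 and a median of -0.04. Depp1, a FoxO target, had -0.79 (SE 0.27, unadjusted p = 0.0150), Gadd45a -0.30 (unadjusted p = 0.0250) and Foxo1 -0.32, none passing. Among partners and regulators of PGC-1, 10 of 21 were above 0, and the CREB coactivators Crtc3 (-0.40, unadjusted p = 0.0293) and Crtc1 (0.27) had opposite signs, beside Lpin1 (-0.20). Pyruvate dehydrogenase genes had 5 of 7 above 0, with Dlat -0.28, Pdp2 0.40 and Dld 0.21 of lowest p. Ucp1 had 0.99 (SE 0.66, unadjusted p = 0.164), and it was above background in 4 mutant and 2 wild-type muscles. Slc25a30 had -0.39, Angptl1 -0.39, Angptl7 0.35 and Rxra 0.33, also without passing.

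In brain, 0 of 79 list genes passed, with 43 differences above 0 and 36 below, a median of 0.01 against 0.0026 over all probes, 6 unadjusted p under 0.05 and a lowest limma adjusted p of 0.608. Genes of fatty acid oxidation had the lowest p among PPAR targets, Mlycd with -0.40, Acadl with -0.34 and Hadhb with -0.35, in a list with 11 of 19 above 0. Of the partners of PGC-1, the estrogen-related receptor gene Esrra had -0.26 (unadjusted p = 0.0165), Lpin1 0.21 and Nrf1 0.22, none passing. Pyruvate dehydrogenase genes had 2 of 8 above 0, with Pdhb -0.35, the phosphatase Pdp1 -0.17 and its relative Pdp2 0.47 of lowest p. The 3 carriers tested, Slc25a5 (-0.15), Slc25a14 (-0.16) and Slc25a27 (-0.13), all had differences below 0. The lipoprotein lipase system had 6 of 7 above 0, and fasting genes 8 of 17, with Tsc22d3 -0.23, Depp1 -0.35 and Fbxo32 0.22 of lowest p.

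Whether the genotype difference itself differs between tissues was tested on the 5 probes measured in both. None passed, where 5 of 10107 probes did, 0.0495% of them, and 437 had an unadjusted p under 0.05 against 505 by chance. For Ppargc1b the muscle effect minus the brain effect was -0.52 (SE 0.27, 95% interval -1.09 to 0.04, unadjusted p = 0.0680, limma adjusted p = 0.995), so a difference between the tissues was not shown. The same contrast was 0.27 for Pdk4, -0.22 for Pdk2, -0.16 for Ppargc1a and -0.16 for Angptl4, each with a limma adjusted p of 0.995. Of 75 list genes, 0 passed, and Lpin1 (-0.41), Hadhb (0.56) and Mlycd (0.61) had unadjusted p under 0.05.

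The muscles varied from mouse to mouse, and in these 8 muscles Pdk4 and Ucp3 tended to be high or low in the same mice. Mutant 4 and mutant 3 were the highest in both, and mutant 2 and wild type 1 the lowest in Pdk4 and in Ucp3 by ILMN_2452102. With mutants and wild types pooled, Pearson's r was 0.81 over the 8 muscles (exact permutation p = 0.0170) and Spearman's rho 0.88 (exact permutation p = 0.00724). Without mutants 4 and 2, the muscles farthest from the median of Pdk4, r was 0.73. This pair was picked out after its values were seen, from 25 pairs of members, 15 in muscle and 10 in brain, of which 0 passed after adjustment, the adjusted p being 0.290 for r and 0.181 for rho. By ILMN_1233132, r was 0.89 (exact permutation p = 0.00404). Over 12 alternatives, all drawn from the same 8 muscles, r ran from 0.76 to 0.89 by ILMN_2452102 and from 0.80 to 0.95 by ILMN_1233132. Over all 8 muscles neither gene ran so with Angptl4 or Ppargc1a, r being 0.47 between Pdk4 and Angptl4, 0.21 between Ucp3 and Angptl4, -0.23 between Pdk4 and Ppargc1a and -0.07 between Ucp3 and Ppargc1a. These values also moved when 2 muscles were left out. Without wild types 3 and 2, r was -0.79 between Pdk4 and Ppargc1a and -0.73 between Ucp3 and Ppargc1a. It was 0.61 between Pdk4 and Angptl4 without mutants 4 and 2, and 0.40 between Ucp3 and Angptl4 without mutants 3 and 4. Whether any of these differ from 0.81 was not tested.

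**Figure D5:**
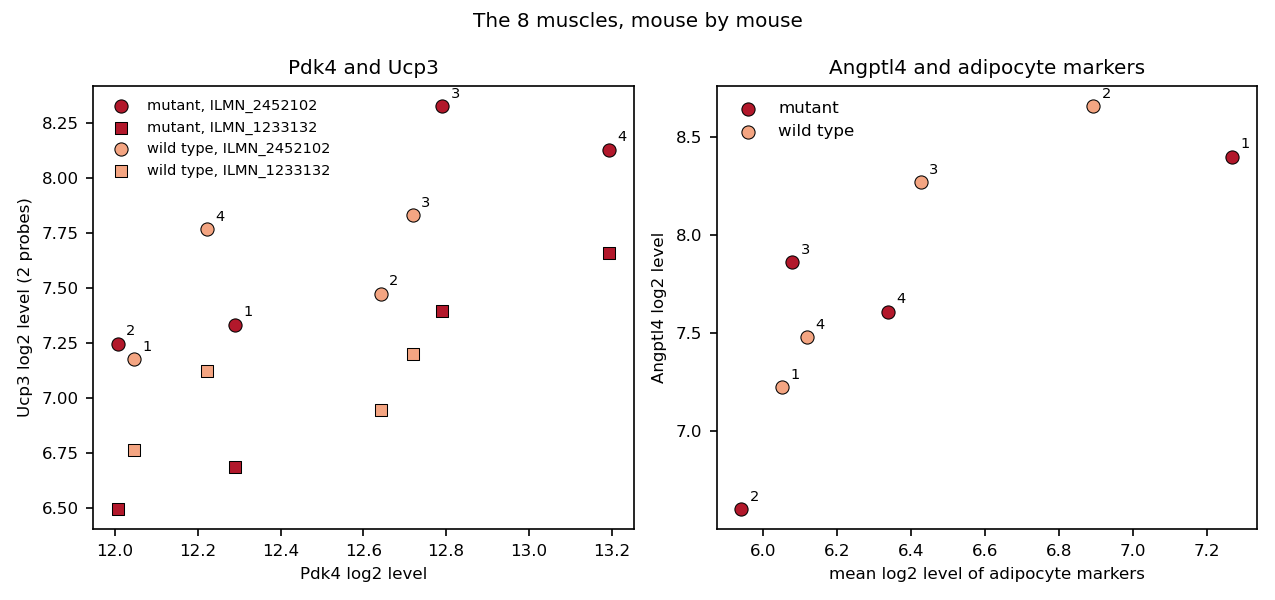
Left, log2 levels of Ucp3 by its 2 probes against those of Pdk4 on the 8 muscle arrays. Right, log2 levels of Angptl4 against the mean of the adipocyte markers above background (numbers, mouse within its group). Mutants 3 and 4 lie at the top of the left panel, and mutant 2 at the bottom left of the right panel with mutant 1 and wild type 2 at its upper right.

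The genes most like each member were found within each tissue as the highest Pearson correlations of deviations from the genotype means, over 8 muscle or 12 brain arrays that share array quality and normalization, and they are a description. In muscle, Pdk4 was most like Nomo1 (r = 0.99), Ascc1 (0.98) and Serhl (0.98). Ucp3 was most like Smox (0.98), Ccdc57 (0.96) and Slc15a4 (0.95) by ILMN_2452102, and like Cops8 (0.99), Smox (0.97) and Kif5b (0.97) by ILMN_1233132. Smox, a spermine oxidase gene, was the only name that both probes shared. Angptl4 was most like Flt1 (0.97), a receptor of vascular endothelial growth factor, Dad1 (0.97) and Renbp (0.95). Ppargc1a was most like Taf13, Klhdc4 and Dusp3 (0.97 to 0.98), Ppargc1b like Vps26b, Pard6a and Sdhaf4 (0.97 to 0.98), and Pdk2 like Rad23b, Ywhah and Atp6v0a1 (0.99 each).

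In brain, Ppargc1b was most like Commd2 (0.92), Fam110b (0.90) and Hmgxb4 (0.90), and Ppargc1a like Mpnd (0.94), Ppm1m (0.92) and Adck1 (0.91). Pdk2 was most like Ttyh1, Ermard and Git2 (0.97 each), Pdk4 like Rabggtb (0.96), Mmrn2 (0.94) and Golm2 (0.91), and Angptl4 like Creld2 (0.92), Mthfd2 (0.91) and Tfam (0.89). Each list is the top of 11706 probes in muscle or 12423 in brain, over 8 or 12 arrays. No member was among the 3 genes most like another member in either tissue.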

How the data were processed

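The authors deposited, for 25697 probes and 20 arrays, intensity values with no normalization or background subtraction and a detection p-value beside each, per the file headers. The authors' processed intensities, in another deposited table, served as an alternative, and how they were normalized is not given in the sources used here. The submitters' processing notes name GenomeStudio 2011.1. RNA was extracted with Trizol and labelled with biotin, per the labels. The platform annotation names 1 gene for 23978 probes and none for 1719, which are unnamed here.

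The steps of neqc (limma 3.58.1, R 4.3.3) were applied: normexp background correction, the negative controls being inferred from detection p, then an offset of 16, quantile normalization and log2. Arrays were normalized within each tissue for genotype and all together for tissue. A probe needed a detection p under 0.05 on 4 or more muscle arrays or 6 or more brain arrays (for tissue, either). Tests were limma's lmFit and eBayes, adjusted by Benjamini-Hochberg over all tested probes, with a threshold of 0.05. The number of arrays limits the precision, and p-values measure the spread between mice.

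The genes and lists were chosen with earlier results of these data known. All member probes are named. Each list gene is represented by its brightest tested probe. By rule, genotype comparisons name the 3 genes of lowest p per list, and the tissue comparison up to 3 called genes per direction and list, of which the text gives most. Alternatives covered background correction, scaling, the authors' values, the offset, the detection filter, array weights, a replicate block, Eif2s3y and leaving out arrays. 1 gene in the study's title is left out. Promoters are from RefSeq (GRCm38.p6).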

Additional observations from a re-analysis of the deposited data

Results flagged for a closer look

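Among 24 groups of probe and samples that were checked, 1 held a mouse far from the others, where chance flags about 1 in 20. Pdk2 in brain mutant 2 had a log2 level of 8.04, while the other 5 mutant brains ran from 6.54 to 6.93, and the gap was 0.739 of the group's range. Mutant 2 is also 1 of the 3 brain arrays that stood apart on the first principal component, and it had the lowest Ppargc1b level of the mutants.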

How the results depend on the processing

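No member probe passed between genotypes, or in the interaction, under any of the alternatives run. Between tissues 6 to 7 passed, where 7 were tested with a detection filter and all 9 without one. Of 1050 alternative values of 43 results, 977 kept direction and call, 33 changed sign as computed, 4 gained a call (Ppargc1b between tissues, given above), 36 counts moved and 0 lost a call. The count of all probes passing in muscle, 21, became 3 with no background correction, 2 by median scaling, 8 with an offset of 50, 8 without a detection filter, 8 with detection on every array, 12 with the replicate block and 12 to 18 leaving out each array. In brain, 1 became 2 without background correction, 2 with an offset of 50, 2 with detection on every array, 5 with array weights, 0 with the replicate block, 2 without the 3 arrays that stood apart, 0 in brains with Eif2s3y, 2 in brains without it and 1 leaving out each array. In the interaction, 5 became 1 without background correction, 1 with median scaling, 25 without a filter, 3 with detection on every array, 2 with the replicate block, 1 with Eif2s3y brains and 3 to 6 leaving out each array. The causes were not tested.

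Signs changed, before allowing for a shift of all probes, in muscle for Ucp3 ILMN_1233132 with median scaling (-0.0011) and array weights (-0.062). Leaving out each muscle gave -0.15 to 0.24 for Ucp3 ILMN_1233132, -0.35 to 0.18 for Pdk2, -0.34 to 0.067 for Ppargc1a, -0.55 to 0.049 for Angptl4 and -0.045 to 0.35 for Pdk4. In brain, signs changed for Pdk2 with median scaling (-0.22) and in Eif2s3y brains (-0.10), for Ppargc1a with median scaling (-0.17), array weights (-0.039) and brains without Eif2s3y (-0.25), for Pdk4 without the 3 arrays (0.043) and in brains without Eif2s3y (0.090), and for Angptl4 in brains without Eif2s3y (0.18). Leaving out each brain gave -0.16 to 0.25 for Pdk2, -0.061 to 0.11 for Ppargc1a and -0.23 to 0.0053 for Pdk4. In the interaction, median scaling gave 0.053 for Pdk2 and 0.011 for Ppargc1a, Eif2s3y brains turned Angptl4 (0.22), and leaving out each array gave -0.41 to 0.12 for Pdk2, -0.38 to 0.033 for Ppargc1a and -0.42 to 0.18 for Angptl4. Ppargc1b between mutant tissues was 0.029 with median scaling. Median scaling moved the median of all probes to -0.026 in muscle, -0.20 in brain, 0.19 in the interaction and 0.12 between mutant tissues. Relative to that median, signs stayed those of the values reported for muscle Ucp3 ILMN_1233132 (0.025), brain Ppargc1a (0.032), interaction Pdk2 (-0.14) and Ppargc1a (-0.18) and mutant tissue Ppargc1b (-0.094), and brain Pdk2 was -0.010.

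Samples with the same replicate number were not taken as pairs in the main tests. Their correlation ran from -0.25 to 0.10 in muscle and -0.07 to 0.62 in brain, where it was over 0.1 for 4 of 6 pairs. In either tissue, 0 correlated best with its own number. The replicate block changed no other member's call. The slide as a block was not run, since no header gives a slide. The Eif2s3y subsets, the arrays that stood apart and the correlation of Pdk4 and Ucp3 were added after seeing the data, the subsets with detection on at least 3 brains. Signal near background leaves Ppara, Ppard and brain Ucp3 unmeasured, and p-values rest on 4 to 6 mice a group.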
